A study of Homo sapiens with 8 samples.

Results

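Axon guidance ligands and receptors were defined by gene symbol as the Eph receptors, ephrins, semaphorins, plexins, neuropilins, Slits, Robos and netrins, together with the netrin receptors UNC5A to UNC5D, DCC and NEO1. The deposited expression table held 58 such genes among its 15811 genes. The GENCODE 29 annotation has 70 protein-coding genes that match, and the other 12 were not analysed here. Of the 58 genes, 31 encode ligands and 27 encode receptors or co-receptors. The study measured total RNA from H9 cells, a human embryonic stem cell line, after 28 h of differentiation toward mesendoderm in RPMI-1640 medium with 6 µM CHIR-99021, a GSK3 inhibitor that activates Wnt signalling. It compared 4 libraries of unedited cells (wild type, WT) with 4 libraries of a CRISPR/Cas9-edited EXT1-/- line. The EXT1 protein is an enzyme that elongates heparan sulfate chains, and per the labels the edited line lacks this sugar. Both groups were grown in E8 medium on vitronectin before differentiation. All edited libraries came from a single EXT1-/- line, and separate cultures are not stated for the replicates. The p-values therefore reflect library-to-library spread, which may be technical.

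Guidance cues are secreted or membrane-bound proteins that attract or repel growing axons and migrating cells through dedicated receptors, and the same families act in gastrulation, somite boundary formation and blood vessel patterning. Ephrins signal between touching cells through Eph receptor tyrosine kinases, semaphorins signal through plexins with neuropilins as co-receptors for most of the secreted class 3 members, Slits repel cells through Robo receptors, and netrins act through DCC, neogenin and UNC5 receptors. Heparan sulfate is a known binding partner of several of these proteins, and Slit binding to Robo is the best studied case.

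Library totals were between 37737058 and 40017763 normalised read counts, so that a level of 1 CPM, the read count scaled to library size, corresponded to 38.9 normalised counts. EXT1 transcript itself was at 1562 ± 144 normalised counts in WT and 920 ± 41.6 in EXT1-/- libraries (mean ± SD, n = 4 each), a log2 fold change of -0.76 ± 0.07 (SE, limma adjusted p = 9.20e-05). The libraries fell into 2 sets by the share of counts from mitochondrial genes. WT replicate 1 and EXT1-/- replicates 1 and 4 were at 10.67%, 9.18% and 9.38%, and the other 5 libraries were between 5.30% and 5.43%. The 3 libraries are called the high set below and the other 5 the low set.

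Across the 58 genes, 29 were higher and 11 were lower in EXT1-/- than in WT cells at a limma adjusted p below 0.05, and 18 did not pass. The 40 that passed were 69.0% of the members, against 32% of all genes in the table. The higher genes were 50% of the members against 15.2% of all genes, and the lower genes were 19.0% against 16.8%. The median log2 fold change of the members was 0.35, and that of all genes was 0.01. Changes of at least 2-fold were made by 9 higher genes, namely NRP1, EFNA2, PLXNA2, DCC, PLXNC1, EPHA7, EFNB1, SEMA3C and EPHB3, and by 3 lower genes, ROBO2, SLIT2 and EPHA6. That was 15.5% and 5.17% of the members, against 2.74% and 4.28% of all genes (7.02% in either direction). DCC and EPHA6 reached the table's minimum only through the genotype in which they were high, so this minimum favoured a difference. Of the 56 members that reached it in both genotypes, 28 were higher and 10 lower (50% and 17.9%). Among the 14751 such genes in the table, 14.9% were higher and 15.7% lower. Changes of at least 2-fold were made by 8 higher and 2 lower of the 56 members (14.3% and 3.57%), against 1.91% and 2.90% of the 14751 genes. Among ligands 17 were higher and 4 lower, and among receptors 12 were higher and 7 lower (11 and 6 of 25 without DCC and EPHA6). The 4 values of each genotype did not overlap in 38 members, DCC and EPHA6 included (65.5%, against 33.5% of all genes). An exact two-sided permutation test over the 70 divisions of the libraries gave the other 36 of these p = 0.0286 each, the smallest value this design allows. Groups that do not overlap always give this value, so it adds nothing to the lack of overlap.

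**Figure D1:**
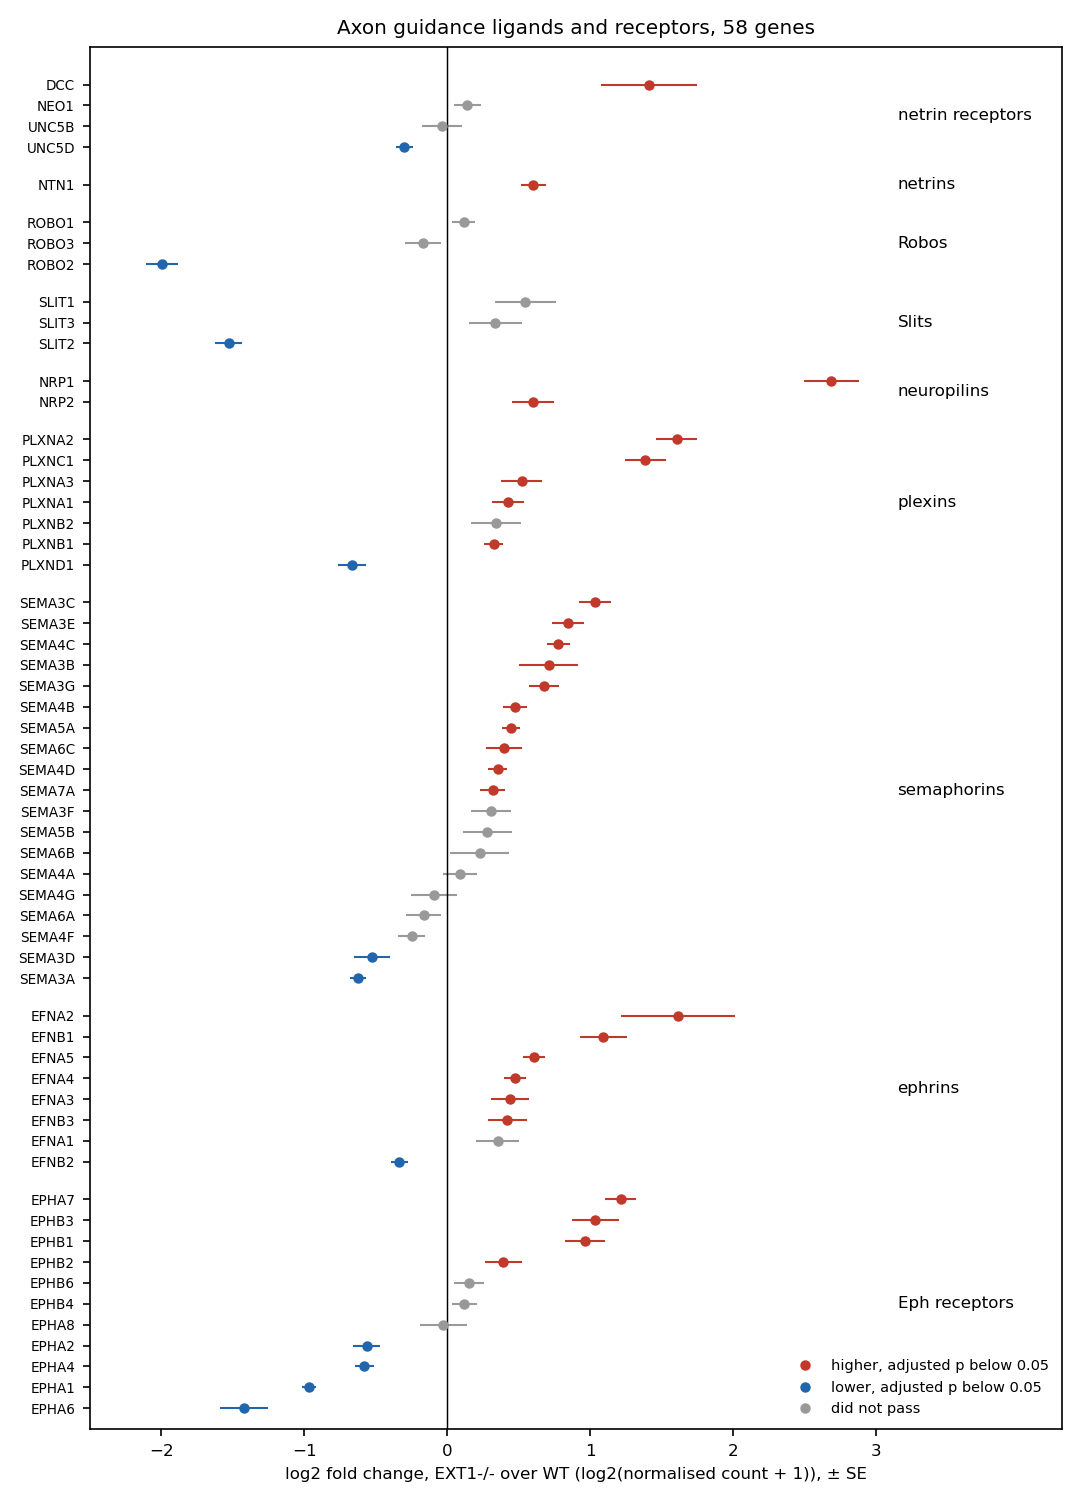
Log2 fold change of each of the 58 guidance genes in EXT1-/- over WT libraries (x axis, on the log2(normalised count + 1) scale, with the standard error), grouped by family. The values run from -1.99 for ROBO2 to 2.69 for NRP1, and most ephrins, semaphorins and plexins lie to the right of 0.

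In these bulk RNA samples, fewer cells that express a gene and less of its RNA per cell cannot be told apart. Of the 40 genes that passed, 31 kept the call under every processing alternative in which they were tested. The other 9 were higher genes. Without WT replicate 2 or WT replicate 4, 8 of the 29 higher calls were lost, without EXT1-/- replicate 1 7 were lost, without WT replicate 3 6, and without EXT1-/- replicate 4 5. The genes concerned were EPHB2, EFNA3, EFNB3, PLXNA1, PLXNA3, SEMA3B, SEMA6C and SEMA7A, of which EFNB3, SEMA6C and SEMA7A are singled out here after their values were seen. The highest adjusted p among these fits was 0.118 for EPHB2, 0.109 for EFNB3, 0.101 for SEMA6C, 0.0885 for EFNA3, 0.0781 for SEMA3B, 0.0648 for SEMA7A, 0.0615 for PLXNA3 and 0.0535 for PLXNA1. The call of DCC was lost in the low set alone. SEMA3B and SEMA6C also lost their calls with a replicate block, and SEMA6C in the authors' deposited FDR. With all 8 libraries scaled to equal upper quartiles, EPHB2 and EFNB3 lost their calls (adjusted p = 0.0598 and 0.0529). Both were also lost in a limma fit without an intensity trend (adjusted p = 0.0589 and 0.0535).

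Of 6 EphA receptors in the table, 4 were lower, EPHA7 was higher and EPHA8 did not pass, and their median log2 fold change was -0.57. Without EPHA6, 3 of 5 were lower and the median was -0.56. Of 5 EphB receptors, EPHB1, EPHB2 and EPHB3 were higher and EPHB4 and EPHB6 did not pass, and the median was 0.39. The difference between the classes was not tested. EPHA1 (ENSG00000146904, chromosome 7, 143390289 to 143408892, minus strand, GRCh38), one of the epithelial members of the EphA class, was the Eph receptor with the highest level per kilobase of exons in WT cells. Its normalised read counts in WT replicates 1 to 4 were 2571, 2721, 2649 and 2532, and in EXT1-/- replicates 1 to 4 they were 1320, 1356, 1348 and 1330. All 4 edited libraries lay in a narrow band below the lowest WT library. The log2 fold change was -0.97 ± 0.05 (SE, limma adjusted p = 2.22e-06). EPHA4, which binds ephrins of both classes, had 1844, 2063, 2067 and 2191 counts in WT and 1334, 1316, 1371 and 1439 in EXT1-/- libraries, again without overlap (-0.58 ± 0.07, adjusted p = 0.000219). EPHA2, a further epithelial Eph receptor, fell from 1520 ± 62.7 to 1036 ± 146 (-0.56 ± 0.10, adjusted p = 0.00221). EPHA6 was expressed at a low level and reached the table's minimum only through the WT libraries, with 86, 75, 100 and 71 counts there and 34, 25, 32 and 30 in EXT1-/- libraries. Since this minimum favoured a difference, the EPHA6 log2 difference of -1.42 ± 0.17 is given without a test.

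EPHA7, a receptor of ephrin-A ligands known from the patterning of cortex and neural tube, went the other way from EPHA1, EPHA2, EPHA4 and EPHA6. It had 390, 549, 502 and 512 normalised counts in WT and 1029, 1212, 1181 and 1085 in EXT1-/- libraries. The lowest edited library was thus well above the highest WT library, and the log2 fold change was 1.21 ± 0.11 (adjusted p = 6.11e-05). EPHB1, a receptor of B-type ephrins, had 200, 206, 172 and 139 counts in WT and 333, 310, 345 and 406 in EXT1-/- libraries (0.96 ± 0.14, adjusted p = 0.000954). EPHB3, at a low level, rose from 48.5 ± 9.15 to 100 ± 13.1 (1.04 ± 0.16, adjusted p = 0.00150). EPHB2 overlapped between genotypes, with WT values of 554 to 732 and EXT1-/- values of 699 to 968 (0.39 ± 0.13, adjusted p = 0.0460). EPHB4, the ephrin-B2 receptor known from veins, was the EphB receptor with the highest level per kilobase and did not pass, at 2733 ± 207 and 2979 ± 317 (adjusted p = 0.333). EPHA8 and EPHB6, the latter lacking kinase activity, also did not pass.

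Per kilobase of exons, the summed level of the EphA receptors was 1279 ± 46.9 in WT and 880 ± 36.5 in EXT1-/- libraries, with no overlap. The summed EphB level was 549 ± 44.3 and 643 ± 67.1, and the ratio of EphB to EphA transcripts was 0.43 ± 0.04 in WT and 0.73 ± 0.06 in EXT1-/- libraries. EPHA1 made up 30.3% ± 0.33 of the Eph receptor level in WT and 18.6% ± 1.30 in EXT1-/- libraries, where EPHB4 had the largest share (30.4% ± 1.51, against 23.2% ± 1.30 in WT). EPHA7 went from 3.58% ± 0.47 to 9.98% ± 1.24. The sums and shares are descriptions without a test.

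Ephrins were mostly higher in EXT1-/- cells. Of 8 ephrins, 6 were higher, 1 was lower and 1 did not pass. EFNB1, a transmembrane ephrin whose human mutations cause craniofrontonasal syndrome, had 1329, 1043, 1105 and 988 normalised counts in WT and 2742, 2023, 1888 and 3003 in EXT1-/- libraries. Every edited library exceeded every WT library, and the 2 edited libraries of the high set were the highest. The log2 fold change was 1.09 ± 0.16 (SE, limma adjusted p = 0.00102). EFNB2, the transmembrane ephrin known from arteries and somite boundaries, was the ephrin that fell. It had 3769, 3510, 3310 and 3225 counts in WT and 2739, 2730, 2664 and 2811 in EXT1-/- libraries (-0.33 ± 0.06, adjusted p = 0.00301). Exons of the opposite-strand gene AL138689.2 cover 26.2% of the EFNB2 exon bases, and the deposited values do not separate strands by a stated setting. Per kilobase, the ratio of EFNB1 to EFNB2 was 0.488 ± 0.04 in WT and 1.33 ± 0.27 in EXT1-/- libraries, so that EFNB1 was the lower of the pair in each WT library and the higher in each edited library.

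The ephrin-A ligands are held to the membrane by a lipid anchor. EFNA5, a ligand of EPHA7 and EPHA4, rose from 731 ± 65.5 to 1114 ± 53.1 (0.61 ± 0.08, adjusted p = 0.000396). EFNA4 rose from 685 ± 39.6 to 955 ± 82.2 (0.48 ± 0.08, adjusted p = 0.00158), and EFNA3 had 691 ± 89.7 and 942 ± 152 with overlapping groups (0.44 ± 0.13, adjusted p = 0.0322). EFNA2 had the largest fold change of the family at a low level, with 81, 50, 58 and 38 counts in WT and 191, 107, 110 and 365 in EXT1-/- libraries. The groups did not overlap, but the edited libraries of the high set were well above those of the low set, and the error was wide (1.61 ± 0.40, adjusted p = 0.0144). EFNA1 did not pass (0.35 ± 0.15, adjusted p = 0.104), but did with the library set as a term (0.40, adjusted p = 0.0334). EFNB3 had 580 ± 94.8 and 775 ± 113 counts with overlapping groups (0.42 ± 0.13, adjusted p = 0.0413). The summed ephrin-A level per kilobase was 1142 ± 85.0 in WT and 1712 ± 234 in EXT1-/- libraries without overlap, whereas the summed ephrin-B level overlapped between 1119 to 1373 and 1318 to 1756.

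**Figure D2:**
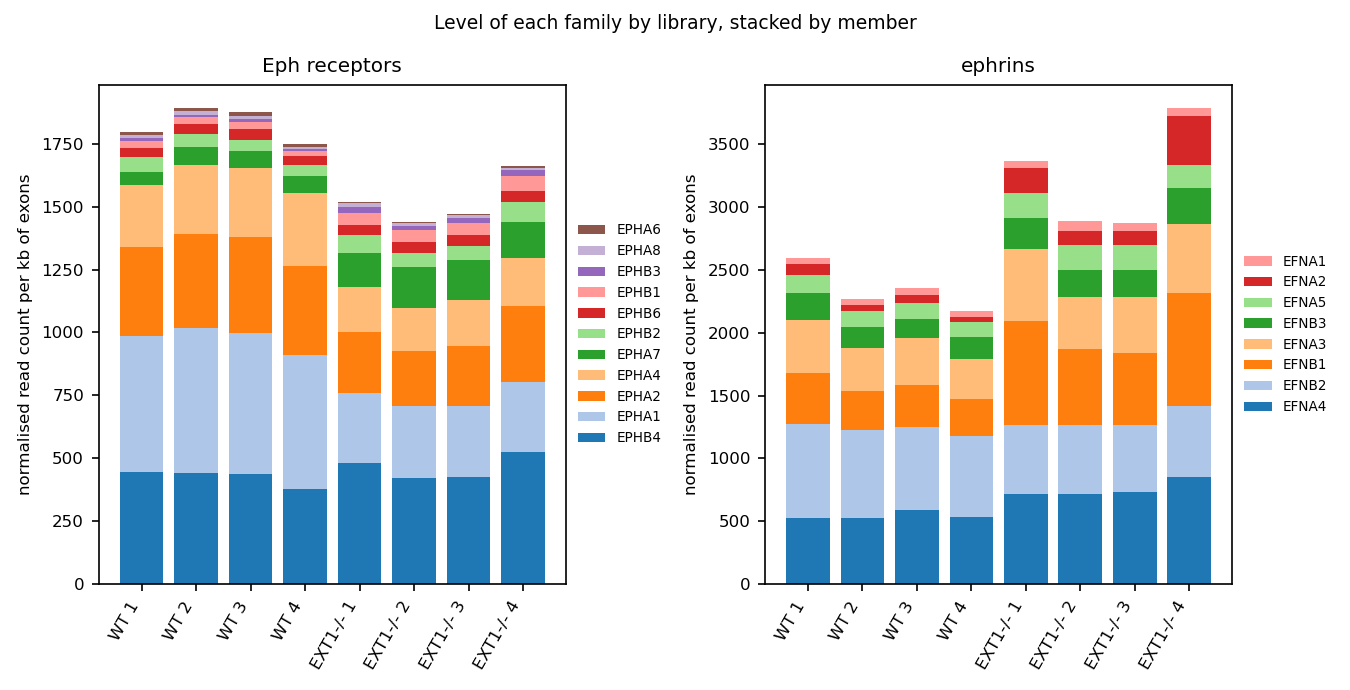
Normalised read count per kilobase of exons (y axis) of the 11 Eph receptors and the 8 ephrins in each of the 8 libraries (x axis), stacked by gene. The EPHA1 segment is smaller in all 4 EXT1-/- libraries than in any WT library, and the EFNB1 segment is larger.

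Semaphorins were represented by 19 genes, of which 10 were higher, 2 were lower and 7 did not pass. Their median log2 fold change was 0.32. The changes of the secreted class 3 ran in both directions, with 4 of 7 genes higher and 2 lower. SEMA3C (ENSG00000075223), a secreted cue needed for septation of the cardiac outflow tract, had 3632, 4716, 4677 and 4778 normalised counts in WT and 7976, 10121, 9971 and 8410 in EXT1-/- libraries. The libraries of the high set were the lower ones within each genotype, and the genotypes did not overlap. The log2 fold change was 1.04 ± 0.11 (SE, limma adjusted p = 0.000182). SEMA3A, the classical repellent that signals through NRP1 and A-type plexins, had 1365, 1311, 1322 and 1382 counts in WT and 907, 840, 834 and 912 in EXT1-/- libraries (-0.62 ± 0.06, adjusted p = 5.48e-05). The ratio of SEMA3C to SEMA3A per kilobase was 4.95 ± 0.66 in WT and 15.7 ± 2.60 in EXT1-/- libraries.

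SEMA3E, which can bind plexin-D1 without a neuropilin, rose from 143 ± 20.2 to 256 ± 9.06 (0.85 ± 0.11, adjusted p = 0.000533), and SEMA3D fell from 199 ± 23.8 to 138 ± 17.2 (-0.52 ± 0.13, adjusted p = 0.0136). SEMA3G rose from 132 ± 7.23 to 212 ± 28.3 (0.68 ± 0.11, adjusted p = 0.00153). SEMA3B was at 75.8 ± 11.9 and 127 ± 38.0 (0.71 ± 0.21, adjusted p = 0.0285). SEMA3F, the ligand of NRP2, did not pass (0.31 ± 0.14, adjusted p = 0.125), but did without EXT1-/- replicate 3 (0.42, adjusted p = 0.0283). SEMA3C, SEMA3E, SEMA3A and SEMA3D lie in this order on chromosome 7 between 80742538 and 85186855 (GRCh38), all on the minus strand. The first 2 of the row were higher and the last 2 were lower, and the 306.7 kb between SEMA3E and SEMA3A separated the directions.

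Among membrane-bound semaphorins, SEMA4C, a ligand of plexin-B2, rose from 1821 ± 84.8 to 3136 ± 343 (0.78 ± 0.08, adjusted p = 0.000148). The class 4 genes SEMA4B and SEMA4D, the latter the ligand of plexin-B1, were also higher, with log2 fold changes of 0.47 and 0.35, and SEMA4A, SEMA4F and SEMA4G did not pass. SEMA4F passed when the fit included the library set (-0.20, adjusted p = 0.0409) and without WT replicate 1 (-0.32, adjusted p = 0.0246). SEMA5A, a transmembrane semaphorin with thrombospondin repeats that bind glycosaminoglycans, rose from 900 ± 51.5 to 1227 ± 52.7 (0.45 ± 0.06, adjusted p = 0.000734), and SEMA5B did not pass. SEMA6A, a transmembrane ligand of plexin-A2 and plexin-A4, shared the highest semaphorin levels per kilobase with SEMA3C. It was at 14618 ± 2335 counts in WT and 12991 ± 1504 in EXT1-/- libraries and did not pass (-0.16 ± 0.12, adjusted p = 0.336). Its WT replicate 1 stood at 17974 and EXT1-/- replicates 1 and 4 at 14316 and 14247, each above the low set of the same genotype. With the library set as a term, SEMA6A passed at -0.25 (adjusted p = 0.00129), and in the low set alone at -0.20 (adjusted p = 0.0186). Of the semaphorin level per kilobase, SEMA6A made up 38.1% ± 3.68 in WT and 26.4% ± 2.22 in EXT1-/- libraries, and SEMA3C 20.5% ± 3.55 and 32.6% ± 4.95. The lipid-anchored SEMA7A (0.32 ± 0.09, adjusted p = 0.0209) and SEMA6C (0.40 ± 0.13, adjusted p = 0.0386) were higher, and SEMA6B did not pass.

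NRP1 (ENSG00000099250, chromosome 10, 33177492 to 33336262, minus strand, GRCh38) had the largest change of the 58 genes. It encodes neuropilin-1, the co-receptor of SEMA3A and of the vascular growth factor VEGF-A. Its normalised counts were 41, 51, 47 and 56 in WT and 277, 253, 313 and 462 in EXT1-/- libraries. The lowest edited library was far above the highest WT library. The means of 48.8 ± 6.34 and 326 ± 93.8 correspond to a 6.69-fold ratio, and the log2 fold change was 2.69 ± 0.19 (SE, limma adjusted p = 1.51e-05). The WT values were near 1 CPM (38.9 normalised counts), so ratios to the NRP1 level in WT rest on few counts. NRP2, the co-receptor of SEMA3F and VEGF-C, had 841, 636, 629 and 643 counts in WT and 1262, 896, 874 and 1156 in EXT1-/- libraries (0.60 ± 0.15, adjusted p = 0.0132). The libraries of the high set were the highest of each genotype. Per kilobase, NRP2 exceeded NRP1 by a ratio of 12 ± 3.41 in WT and 2.78 ± 0.76 in EXT1-/- libraries, and the fitted change of NRP1 was larger than that of NRP2, a difference that was not tested.

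Plexins, the signalling receptors of semaphorins, were represented by 7 genes, with 5 higher, 1 lower and 1 not passing. PLXNA2 had 153, 112, 147 and 132 counts in WT and 408, 384, 354 and 525 in EXT1-/- libraries, without overlap (1.61 ± 0.14, adjusted p = 5.72e-05). PLXNC1, the receptor of SEMA7A, had 57, 73, 62 and 57 counts in WT and 132, 166, 190 and 172 in EXT1-/- libraries (1.39 ± 0.14, adjusted p = 0.000128). PLXND1, the SEMA3E receptor known from developing vessels, fell. Its counts were 986, 977, 996 and 925 in WT and 616, 541, 561 and 748 in EXT1-/- libraries, so that all 4 edited libraries were below all WT libraries (-0.67 ± 0.10, adjusted p = 0.00115). The ratio of PLXND1 to PLXNA2 per kilobase was 10.2 ± 1.44 in WT and 2.10 ± 0.12 in EXT1-/- libraries. The more abundant plexins moved less, with PLXNA1 at 2437 ± 275 and 3273 ± 435 (0.42 ± 0.11, adjusted p = 0.0196) and PLXNB1 at 1986 ± 153 and 2487 ± 94.3 (0.33 ± 0.07, adjusted p = 0.00575). PLXNA3 was at 426 ± 67.6 and 611 ± 98.0 (0.52 ± 0.14, adjusted p = 0.0230). PLXNB2, the plexin with the highest level per kilobase, overlapped between genotypes and did not pass (0.34 ± 0.17, adjusted p = 0.167).

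**Figure D3:**
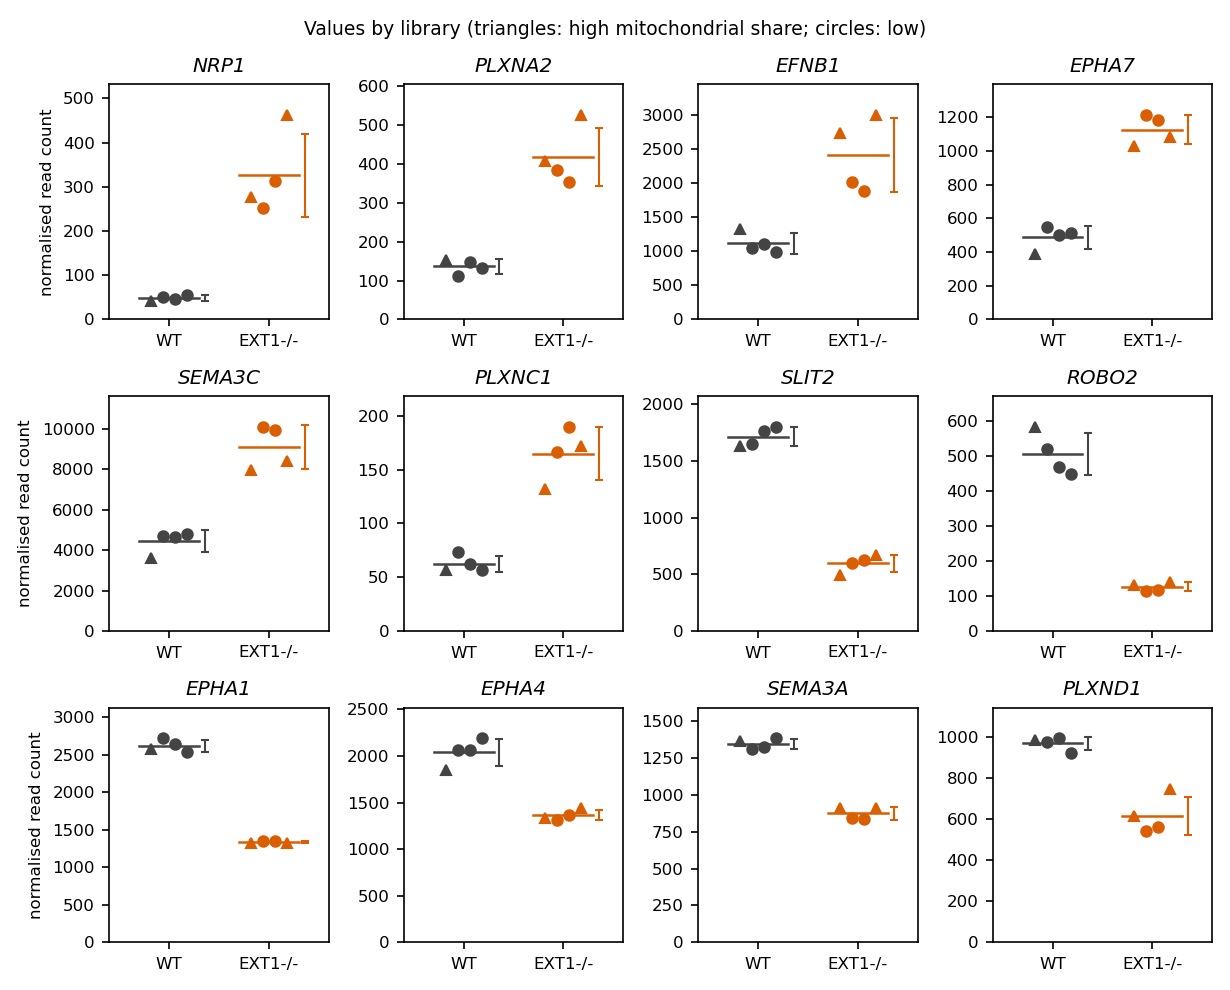
Normalised read counts (y axis, from 0) of guidance genes in each of the 4 WT and 4 EXT1-/- libraries, with triangles for libraries of the high mitochondrial share and circles for the others. The genotypes do not overlap for NRP1, PLXNA2, EPHA7, SLIT2 or ROBO2.

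The Slit and Robo families each held 1 strongly reduced gene beside members that did not pass. SLIT2 (ENSG00000145147, chromosome 4, 20253260 to 20620561, plus strand) is a secreted repellent. It had 1634, 1653, 1767 and 1803 normalised counts in WT and 495, 603, 622 and 668 in EXT1-/- libraries. All edited libraries were below all WT libraries, and the mean fell from 1714 ± 83.4 to 597 ± 73.3 (log2 fold change -1.53 ± 0.09, SE, limma adjusted p = 7.12e-06). ROBO2 (ENSG00000185008, chromosome 3, 75906695 to 77649964, plus strand), a Slit receptor, had 583, 518, 469 and 447 counts in WT and 131, 115, 116 and 141 in EXT1-/- libraries. This was the largest reduction of the 58 genes, from 504 ± 60.3 to 126 ± 12.5 (-1.99 ± 0.11, adjusted p = 3.98e-06). ROBO1, the Slit receptor that lies 947.3 kb from ROBO2 in the opposite orientation, was at 3608 ± 391 and 3895 ± 215 and did not pass (0.11 ± 0.08, adjusted p = 0.323). The ratio of ROBO1 to ROBO2 per kilobase was 11.0 ± 0.16 in WT and 47.6 ± 2.43 in EXT1-/- libraries, with a narrow spread within each genotype.

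ROBO3, a Robo relative that regulates midline crossing of axons, was at 295 ± 33.1 and 263 ± 38.5 (-0.17 ± 0.12, adjusted p = 0.337). It passed with the library set as a term (-0.25, adjusted p = 0.00968) and in the low set alone (-0.27, adjusted p = 0.0398). SLIT1 had 42, 46, 24 and 35 counts in WT and 53, 55, 48 and 55 in EXT1-/- libraries, which did not overlap but did not pass the moderated test (0.55 ± 0.21, adjusted p = 0.0820). SLIT3 overlapped between genotypes (0.34 ± 0.19, adjusted p = 0.200), and without WT replicate 1, its highest WT library, it passed at 0.51 (adjusted p = 0.0249). SLIT2 made up 95.7% ± 0.98 of the Slit level per kilobase in WT and 85.3% ± 1.99 in EXT1-/- libraries.

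NTN1, which encodes netrin-1 and was the single netrin in the table, had 759, 787, 763 and 664 normalised counts in WT and 1091, 1051, 1076 and 1303 in EXT1-/- libraries. The genotypes did not overlap (0.60 ± 0.09, limma adjusted p = 0.000934). Its attractive receptor DCC was near the lower limit of the table and reached it only through the EXT1-/- libraries, with 16, 18, 7 and 21 counts in WT and 44, 34, 36 and 48 in EXT1-/- libraries. Its log2 difference of 1.41 ± 0.34 is likewise given without a test. UNC5D, a member of the repulsive netrin receptor family that also binds FLRT proteins, had 3600, 3819, 3807 and 3711 counts in WT and 2798, 3249, 3164 and 2955 in EXT1-/- libraries (-0.30 ± 0.06, adjusted p = 0.00530). NEO1, the DCC relative neogenin and the most abundant of these receptors per kilobase, was at 3394 ± 388 and 3742 ± 363 and did not pass (0.14 ± 0.10, adjusted p = 0.296). UNC5B did not pass either (-0.04 ± 0.14, adjusted p = 0.869).

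The 250 bases before the annotated transcript start were read from RefSeq for the GRCh38.p14 build, which had an entry for 50 of the 58 genes. Those of PLXNA2, EPHA7, SLIT2 and ROBO2 are printed because these genes had large changes in both directions. The windows lie at chr1:208244385-208244634 (minus strand), chr6:93419560-93419809 (minus strand), chr4:20251655-20251904 (plus strand) and chr3:76310630-76310879 (plus strand), and each is written 5′ to 3′ on the strand of its gene. Capitals mark GC boxes (GGGCGG on either strand).
PLXNA2: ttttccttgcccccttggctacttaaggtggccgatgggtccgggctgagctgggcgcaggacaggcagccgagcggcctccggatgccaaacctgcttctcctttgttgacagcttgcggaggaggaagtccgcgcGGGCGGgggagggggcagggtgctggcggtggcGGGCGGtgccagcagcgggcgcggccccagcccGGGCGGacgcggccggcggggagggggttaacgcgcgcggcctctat
EPHA7: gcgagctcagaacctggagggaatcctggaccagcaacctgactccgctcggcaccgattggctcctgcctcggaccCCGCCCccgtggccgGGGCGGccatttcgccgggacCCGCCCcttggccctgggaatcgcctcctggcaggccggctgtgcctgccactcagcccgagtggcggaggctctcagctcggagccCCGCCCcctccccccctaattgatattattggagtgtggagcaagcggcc
SLIT2: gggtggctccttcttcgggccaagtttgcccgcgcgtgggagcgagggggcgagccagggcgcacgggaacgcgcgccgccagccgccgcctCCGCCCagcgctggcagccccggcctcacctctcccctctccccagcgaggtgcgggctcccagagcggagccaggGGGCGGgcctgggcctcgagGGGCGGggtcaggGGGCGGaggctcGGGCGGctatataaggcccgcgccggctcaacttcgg
ROBO2: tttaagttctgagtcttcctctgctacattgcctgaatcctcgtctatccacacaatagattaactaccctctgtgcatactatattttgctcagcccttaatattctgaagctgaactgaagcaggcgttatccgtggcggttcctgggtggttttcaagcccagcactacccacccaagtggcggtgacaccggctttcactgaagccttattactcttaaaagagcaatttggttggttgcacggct

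The GC box was found 3 times in the PLXNA2 window, 4 times in that of EPHA7, 5 times in that of SLIT2 and 0 times in that of ROBO2. The ROBO2 window held 46.8% G and C, against 72.4%, 69.6% and 77.2% in the other 3. ROBO2 has several annotated starts, and the window belongs to 1 of them. A GC box was present in 78.0% of the 50 windows and in 67.1% of the 10865 windows of genes in the deposited table. It was present in 80.8% of the 26 windows of higher genes, in 77.8% of the 9 windows of lower genes and in 73.3% of the 15 windows of genes that did not pass. The ETS core CCGGAA was searched on both strands and found in 3 of the 50 windows (6.00%, against 24.5% of windows of genes in the table), and all 3 belonged to higher genes. The TCF/LEF core CTTTGA, likewise searched on both strands, was also found in 3 windows (6.00%, against 7.80%). Each motif was counted on its own, and these matches describe letters in the window alone.

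Partners and effectors of the guidance receptors were a list of 72 genes, with 64 in the table. Of these 64, 24 were higher and 6 lower (37.5% and 9.38%, against the 15.2% and 16.8% of all genes given above). The median log2 fold change of the 64 was 0.13. Among the higher ones, MICAL2 reached the table's minimum only through the EXT1-/- libraries, so this minimum favoured its call. Of all genes that reached the minimum in both genotypes, 14.9% were higher and 15.7% lower. DPYSL5, a collapsin response mediator protein of the semaphorin pathway, rose from 337 ± 29.7 to 1111 (1.71 ± 0.10, limma adjusted p = 6.61e-06). NCAM1, a neural cell adhesion molecule, rose from 180 ± 18.8 to 527 (1.54 ± 0.12, adjusted p = 2.13e-05). TIAM1, an activator of the GTPase Rac, rose from 1790 to 3031 (0.76 ± 0.06, adjusted p = 2.64e-05), and DRAXIN, a secreted repellent that binds DCC, from 2784 to 4059 (0.55 ± 0.08, adjusted p = 0.000679). Among the lower genes, PAK1, a kinase activated by Rac, fell from 6789 to 5161 (-0.39 ± 0.06, adjusted p = 0.00134). DOCK1, a Rac activator downstream of DCC, fell from 2671 to 2071 (-0.37 ± 0.05, adjusted p = 0.000741). ABLIM1, an actin-binding LIM protein, fell from 4762 to 3922 (-0.28 ± 0.06, adjusted p = 0.00882). ARHGEF12, an exchange factor that links B-type plexins to RhoA, was at 3083 and 2515 (-0.30 ± 0.08, adjusted p = 0.0227) and lost its call with equal library totals (adjusted p = 0.0518). It also lost it without WT replicate 2, 3 or 4 or EXT1-/- replicate 1 or 4, with adjusted p-values from 0.0503 to 0.0689. The count of 6 lower partners was 3 without WT replicate 2, WT replicate 4 or EXT1-/- replicate 4.

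Markers of other cell types moved in the same libraries. For comparison, 15.2% of all genes were higher and 16.8% lower, and the marker lists are short. Of 7 neuronal markers in the table, 5 were higher, including TUBB3 (2548 to 7013) and STMN2 (203 to 1691), and SYT1 was lower. The summed neuronal level was 7959 to 8967 in WT and 14447 to 17379 in EXT1-/- libraries, and ELAVL3, ELAVL4 and SNAP25 were not analysed here. Of 8 neuroectoderm markers 4 were in the table, and PAX6, SOX1, LHX2 and SIX3 were not analysed here. SOX3 and ZIC1 were higher. POU3F2 (12.5 to 92.8) reached the table's minimum only through the EXT1-/- libraries, so this minimum favoured a higher value there. OTX2 (114 to 33.0) reached the minimum only through the WT libraries, which favoured a lower value in EXT1-/- libraries. The sums were 854 to 1093 in WT and 3728 to 6384 in EXT1-/- libraries, where ZIC1 had the largest mean (3053). Of 8 neural crest markers 5 were in the table, and SOX10, FOXD3 and SNAI2 were not analysed here. PAX3 and MSX1 were higher and SOX9 was lower. TFAP2A (3.25 to 189) and DLX5 (3.75 to 116) reached the minimum only through the EXT1-/- libraries, which favoured higher values there. The sums were 704 to 862 in WT and 5097 to 12590 in EXT1-/- libraries, where MSX1 had the largest mean (6108 ± 3254). Of 8 endothelial markers 2 were in the table, and TEK was higher (591 to 1550). TIE1 (79.0 to 19.8) reached the minimum only through the WT libraries, which favoured a lower value in EXT1-/- libraries. Of 7 primitive streak and mesendoderm markers, which cover the cell type the labels name, all 7 were in the table, with 5 lower and FGF17 higher, and their sums were 31815 to 36227 in WT and 12301 to 19945 in EXT1-/- libraries. Of 7 markers of pluripotent cells 4 were lower and SOX2 was higher, with sums of 162923 to 165822 in WT and 120634 to 132813 in EXT1-/- libraries. The part of these cell type differences in the guidance gene results was not tested.

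The direction of the guidance genes was compared within the sets of libraries. The fold change had the same sign in the low set (3 WT and 2 EXT1-/- libraries) and in the high set (1 WT and 2 EXT1-/- libraries) for 55 of 58 members (94.8%) and for 80.8% of all genes. Every gene that passed over the 8 libraries had the same sign in both sets, both the 40 members and all 5063 of the table. The sets consist of the libraries the calls were made on, so this is no separate evidence for the members. In the low set alone 28 were higher and 13 lower, against a background of 20.9% and 24.1% of all genes (45% in either direction), and with the set as a term 30 were higher and 14 lower, against 26.2% and 25.6% (51.8% in either direction). In the authors' deposited table, 28 members were higher and 11 lower at an FDR below 0.05, against 12.6% and 13.6% of all genes. Within a genotype the members tended to higher values in the high set, by a median log2 difference of 0.16 in WT and 0.21 in EXT1-/- libraries, whereas the medians over all genes were -0.00 and 0.03.

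**Figure D4:**
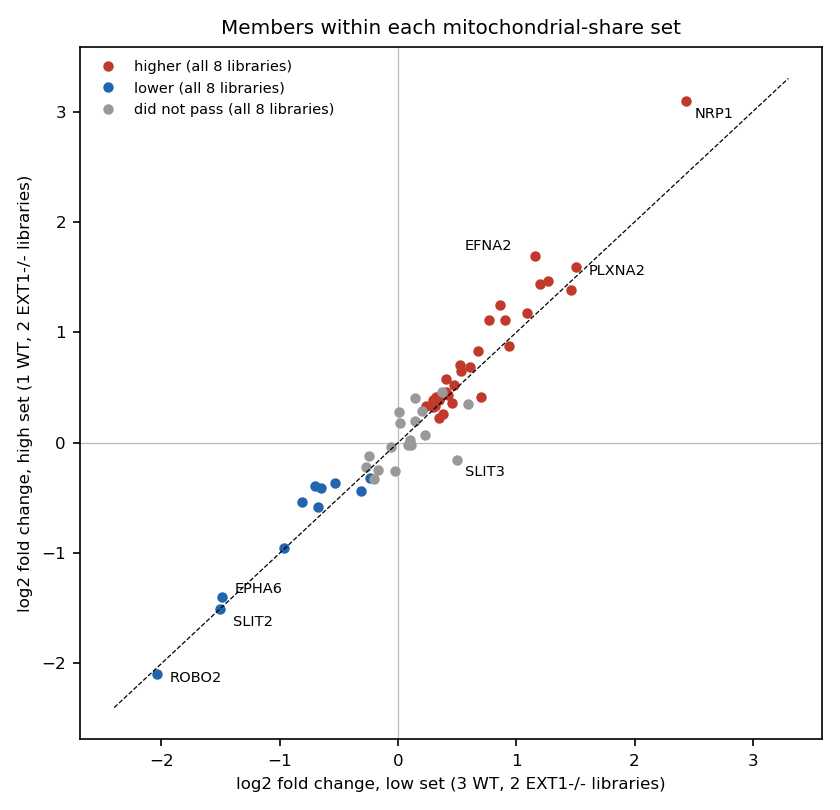
Log2 fold change of each of the 58 genes in the low set (x axis, 3 WT and 2 EXT1-/- libraries) and the high set (y axis, 1 WT and 2 EXT1-/- libraries), on the log2(normalised count + 1) scale. Both sets have the same sign for 55 of the 58 genes (94.8%, against 80.8% of all genes), and SLIT3 is among the others.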

How the data were processed

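Total RNA was sequenced with the TruSeq Stranded Total RNA kit, per the labels' protocols. The submitters' processing notes name STAR, RSEM, edgeR and GRCh38.p10; versions are not given in the sources used here. The authors deposited 1 table of 15811 genes with whole-number normalised values per library, used here as a signal scaled to library size. Totals were 37737058 to 40017763, but the effective library sizes by the trimmed mean of M-values were nearly equal (38891466 to 38902443), so the values were not treated as raw counts. The authors' deposited log2 fold change, p-value and FDR columns, and deposited scores, served as a comparison. Every gene reached 38 normalised counts (0.977 CPM) in at least 2 libraries.

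Values were analysed as log2(value + 1) with limma 3.58.1 (R 4.3.3) with an intensity trend, genotype as the single term, and Benjamini-Hochberg adjustment over 15811 genes. A fold change on this scale understates the change of low genes. The fit was also run on simulated data without library sets. That is a simpler case than these libraries, so the run says nothing on the calls reported here. Single genes were also tested by exact two-sided permutation over 70 divisions. The depth of the reads behind the normalised values is unknown, so no counting intervals are given. Levels per kilobase used exon lengths and coordinates of GENCODE 29 (GRCh38). In each family, the gene with the highest level per kilobase and up to 5 per direction with the largest change were named. Families of 4 genes or fewer were described in full, and up to 4 partners per direction with the smallest adjusted p were named. EFNA1, SEMA3F, SEMA4B, SEMA4D, SEMA4F and SEMA5A also fell outside this rule, and their values are given after they were seen. Members, lists and tests were chosen with earlier results of these data known. Alternatives were other scalings, pseudocounts, filters, library sets, a replicate block and leaving out each library.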

Additional observations from a re-analysis of the deposited data

Results flagged for a closer look

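Each group of 4 libraries was searched for a highest or lowest value that stood apart from the other 3 by more than Dixon's 95% criterion. Of 104 groups searched, 11 were picked out, and chance picks about 1 in 20, which is 5.2. WT replicate 1 stood apart with 841 normalised counts of NRP2, 3974 of NEO1, 2845 of DOCK1 and 1776 of EXT1, each the highest WT value, and with 3632 of SEMA3C, the lowest. WT replicate 3 had the highest WT value of EFNA4 (744). WT replicate 4 had the lowest WT value of EPHB4 (2424) and the highest of TIAM1 (1942). EXT1-/- replicate 4 had the highest edited value of EFNA4 (1077), NTN1 (1303) and SEMA3G (254). WT replicate 1 and EXT1-/- replicate 4 belong to the high mitochondrial set.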

How the results depend on the processing

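Among the named genes, 941 results under alternatives kept direction and side of the threshold, 31 no longer passed, 5 passed where the reported fit did not, and 0 reversed. The count of higher members was 23 to 30 under settings that kept all libraries or dropped a set, and 21 to 30 when 1 library was left out. Lower members were 9 to 14. The count of lower partners (6) became 11 with the library set as a term and 10 in the low set alone, and 3 to 8 when 1 library was left out. Genes called over the whole table (5063) became 8195 with the set as a term, and 3721 to 6041 when 1 library was left out. The causes were not tested. With a replicate block, 27 members were higher and 11 lower, partners were 21 higher and 5 lower, and 4934 genes were called in all; SEMA3B and SEMA6C lost their calls (adjusted p = 0.0504 and 0.0571). Deviations of same-numbered libraries correlated at 0.67, 0.16, 0.24 and -0.52, and not every library correlated best with its own number, so the numbers were not taken as pairs. No sequencing depth is known for these normalised values. Genes near 1 CPM such as DCC, EPHA6 and SLIT1 rest on few counts, as do the WT values of NRP1.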
